A study of Mus musculus with 6 samples.

Results

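A set of 9 myelin genes was followed in motor neuron-like cells after depletion of the RNA-binding protein Quaking. They were taken by symbol from the deposited gene table and made up 9 of its 23038 genes. Fa2h, Ugt8a and Gal3st1 encode enzymes of myelin lipid synthesis. Mbp, Cnp, Mag, Mog, Mobp and Mal encode proteins of the myelin sheath. The genes were proposed as known Quaking-dependent genes of oligodendrocytes, with results of this knockdown already in view, so their change between the groups is given as a description. Counts of members called across all genes are printed beside their background, and nothing is read from them.

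The cells were NSC-34, a mouse line that comes from the fusion of a neuroblastoma with motor neurons of the spinal cord, grown in serum medium. Control siRNA (siNC) was transfected into 3 cultures and siRNA against the Qk transcript (siQk) into another 3, and poly-A RNA was sequenced on the third day after transfection. The siQk cultures received 3 different siRNAs, and the labels do not give which library received which. NSC-34 is a single hybrid line with no myelinating cells in the culture as labelled, so the values below are those of myelin genes outside their usual cell type.

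Myelin is rich in galactosylceramide and its sulfated form, sulfatide. Fa2h adds a hydroxyl group to the fatty acids that enter these lipids, Ugt8a joins galactose to ceramide, and Gal3st1 adds the sulfate. Quaking is known in oligodendrocytes and Schwann cells as an RNA-binding protein that myelination needs. It recognises short RNA elements with the core ACUAA followed by a pyrimidine.

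The core element was therefore looked for in the longest protein-coding transcript of each gene (GENCODE M21, GRCm38), on the transcript strand and with T written for U. The words searched were ACTAAC and ACTAAT, which differ in their last base and cannot match at the same position. Fa2h, the gene with the largest fold difference below, had no match in a transcript of 2492 bases, and neither did Cnp, Mag or Mog. Ugt8a and Mbp had 2 matches each and Gal3st1, Mobp and Mal had 1 each, all in the 3′ UTR. The sites of 4 of these genes are shown with 10 bases on each side and the element in capitals, since they are the only members' sequences that carry it besides Mbp.
Ugt8a, chr3:125865917-125865942, minus strand: aatgtcactcACTAACatggcagagt
Ugt8a, chr3:125865581-125865606, minus strand: gacaatagacACTAACtggatgatta
Gal3st1, chr11:3999225-3999250, plus strand: gaggtatttaACTAATtatgccattt
Mobp, chr9:120176049-120176074, plus strand: gttatctggcACTAACaagaactcaa
Mal, chr2:127633369-127633394, minus strand: ctaacattacACTAACcagcagctca

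Matches to so short an element are common. Of 12050 tested genes with a protein-coding transcript, 45.1% held at least 1. Among 3019 tested genes with a transcript between 0.8 and 1.25 times the length of that of Fa2h, 36.2% did. The same share ran from 24.3% at the length of Mog to 58.9% at the length of Mbp. Counting the 3′ UTR alone, 33.0% of the 12050 genes held a match. Among tested genes with a 3′ UTR of similar length the share was 8.26% for Gal3st1, 40.2% for Ugt8a, 40.7% for Mal, 57.8% for Mobp and 68.7% for Mbp, and 31.7% for Fa2h. A match is a description of these letters and not a measured binding site, and the absence of a match says only that the letters are not in this transcript.

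The 6 libraries held 43000503 to 53565950 counts, with 16057 to 16516 genes above 0. Qk, the targeted gene (chr17:10202601-10319854, minus strand), measured 9.67, 8.18 and 14.9 RPKM (counts per length of exon, scaled to the library total) in siNC replicates 1 to 3. It measured 1.39, 1.71 and 1.10 RPKM in siQk replicates 1 to 3, so 12.8% of the siNC mean was left. On the log2 scale Qk fell by 3.00 (SE 0.34). The quasi-likelihood test of edgeR, run across all tested genes, gave it an adjusted p of 0.0149. The two-sided exact permutation test over libraries gave p = 0.1, the smallest that 3 against 3 allows. In a principal component analysis siQk replicate 2 stood apart on the first component (41.2% of the variance) and siNC replicate 3 on the second (28.9%). The fold changes that these libraries moved most are also given without them.

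Levels of the 9 genes were low apart from Fa2h and, to a lesser degree, Cnp. In the siNC cells Fa2h was the most abundant member, at 10.5 ± 5.67 RPKM (SD, n = 3), above 49.9% of the 12665 genes tested. Cnp followed at 1.94 ± 0.911 RPKM, above 15.7% of the tested genes, and Mbp at 0.498 ± 0.0718 RPKM, above 3.13%. The ratio of the Fa2h mean to the Cnp mean was 5.41, and without siNC replicate 3 the means were closer, at 7.32 and 2.27 RPKM. Mal, Mag, Mog, Gal3st1 and Mobp had mean siNC levels of 0.281, 0.0786, 0.0666, 0.0621 and 0.00202 RPKM, and Ugt8a was listed at 0. Between neighbours in this order the siNC ranges did not overlap for Fa2h and Cnp, Cnp and Mbp, Mal and Mag, or Gal3st1 and Mobp. The ranges overlapped for Mbp and Mal, Mag and Mog, Mog and Gal3st1, and Mobp and Ugt8a, so these neighbours did not differ beyond their spread.

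**Figure D1:**
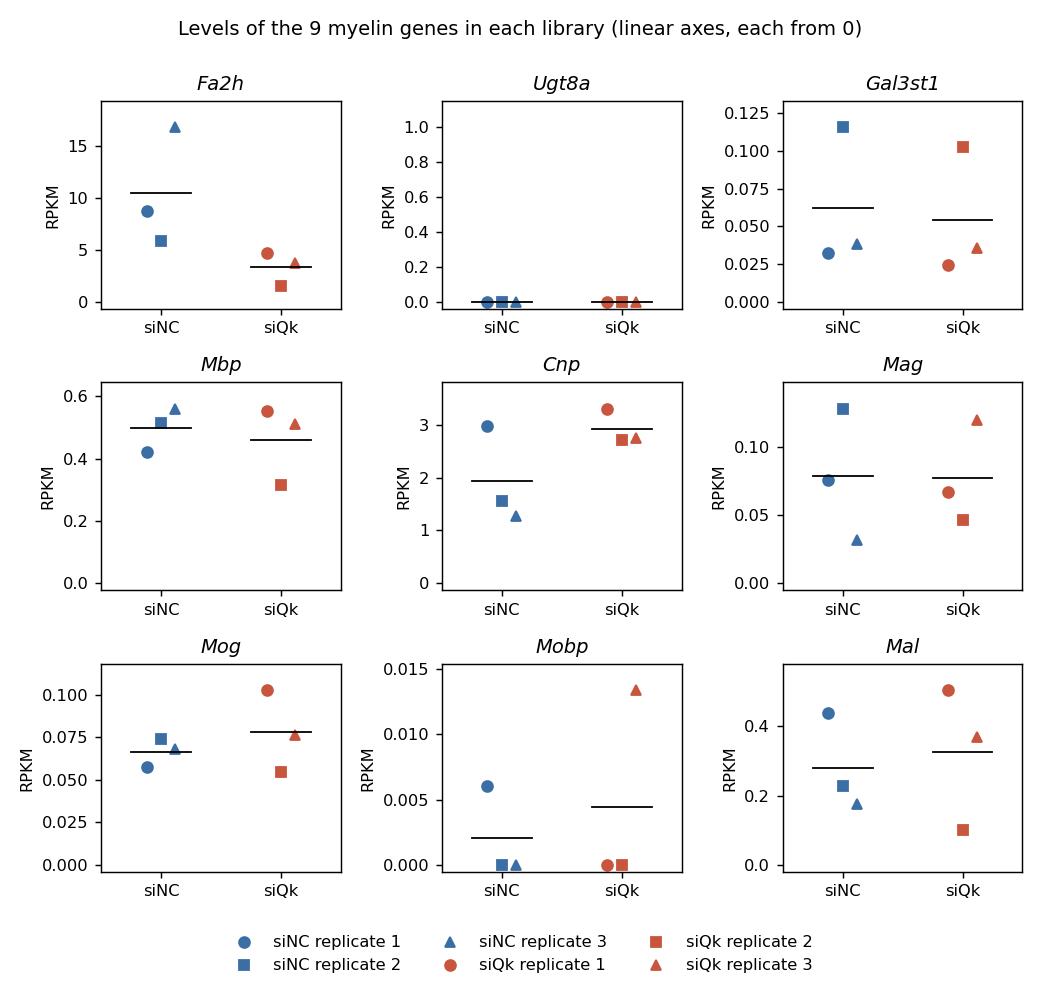
Level of each of the 9 genes in RPKM (vertical axes, linear, each with its own range) in the 3 siNC and 3 siQk libraries; points are libraries, shaped by replicate number, and horizontal lines are group means. Fa2h is the member whose siQk points (1.47 to 4.72 RPKM) all lie below its siNC points (5.90 to 16.8 RPKM), while the groups of the other members overlap or, for Ugt8a, are at 0.

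The siNC and siQk libraries overlapped for 8 of the 9 genes and were apart for 1, Fa2h. Of all tested genes, 8.84% were apart, 3.49% with siQk lower and 5.35% with siQk higher. These shares cover only genes that passed the filter on low values (mean log2 CPM above 0). The filter kept 3 of the 9 members, Fa2h, Cnp and Mbp, in the fit across genes. Among these 3, Fa2h was the 1 that was apart. None of the 3 was called by the edgeR quasi-likelihood test at p under 0.01 and adjusted p under 0.1, where 0.0079% of tested genes (1 gene, Qk) were. At an unadjusted p under 0.05 there was 1 member, Fa2h, beside 2.89% of all tested genes (1.69% lower and 1.2% higher in siQk). The edgeR exact test called 5 genes (0.0395%) and no member, and DESeq2 called 19 genes (0.15%), among them Fa2h. These counts come from the contrast that was in view when the genes were proposed.

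Fa2h lies at chr8:111345135-111393824 on the minus strand, with 4 annotated transcripts whose exons overlap no other gene. Its enzyme, fatty acid 2-hydroxylase, is also known outside myelin, for example in skin, and its loss in people causes a hereditary spastic paraplegia. The siNC libraries measured 8.74, 5.90 and 16.8 RPKM. The siQk libraries measured 4.72, 1.47 and 3.71 RPKM. Every siQk value was below every siNC value, with siNC replicate 3 the highest and siQk replicate 2 the lowest of the 6. The counts behind these levels were 1315, 825 and 2138 in siNC and 636, 233 and 505 in siQk, so counting error was small beside the spread between libraries.

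The mean level of Fa2h in siQk cells was 3.30 ± 1.66 RPKM (SD, n = 3), which is 31.5% of the siNC mean and 3.18-fold lower. The log2 fold change in the fit was -1.71 (SE 0.69), and 4 of the 12665 tested genes had a more negative one. A log2 fold change of -1 or less was reached by 0.442% of tested genes. The groups were separated by a narrow gap, the lowest siNC value being 1.25 times the highest siQk value. Within the groups the highest value of Fa2h was 2.85 times the lowest in siNC and 3.21 times in siQk, beside 3.18 for the ratio of the group means. Its within-group SD was 0.85 on the log2 CPM scale, larger than that of 98.1% of tested genes, whose median was 0.26.

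Both libraries that stood apart from the rest lay at the ends of the Fa2h range. Without siNC replicate 3 the log2 fold change of Fa2h was -1.15. Without siQk replicate 2 it was -1.36. With both left out it was -0.79. The remaining groups could not overlap, since they were apart with all libraries in. Leaving out siQk replicate 1 or siNC replicate 2 moved it the other way, to -2.06 and -2.02. The other scalings, filters and tests gave -1.67 to -1.72, as the plot of Fa2h by setting shows. In bulk RNA fewer cells that express a gene and less of its RNA per cell cannot be told apart, which holds for every value here.

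**Figure D2:**
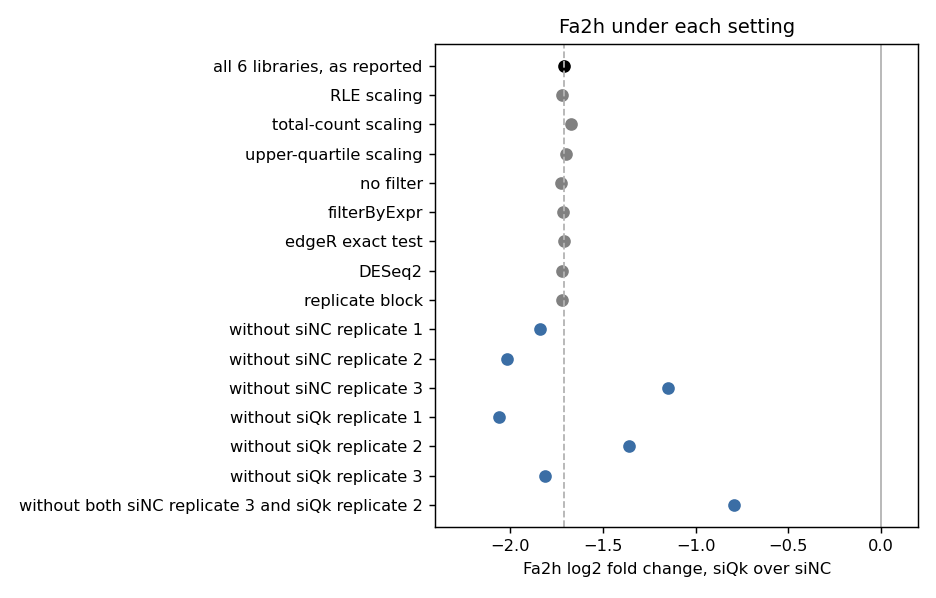
Log2 fold change of Fa2h, siQk over siNC (horizontal axis), under each setting (rows); black is the value with all 6 libraries, grey are other scalings, filters and tests, blue are fits with libraries left out, the dashed line repeats the reported value and the solid line marks 0. The value was -1.71 with all libraries and came closest to 0, at -0.79, without both siNC replicate 3 and siQk replicate 2.

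Qk and Fa2h did not follow each other library by library within the siQk group. The siQk library with the most Qk left, replicate 2 at 1.71 RPKM, had the least Fa2h, 1.47 RPKM. In siNC the library with the most Qk, replicate 3 at 14.9 RPKM, also had the most Fa2h, 16.8 RPKM. Since the libraries fall into separate siNC and siQk clusters in Qk, no correlation over the 6 is given.

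**Figure D3:**
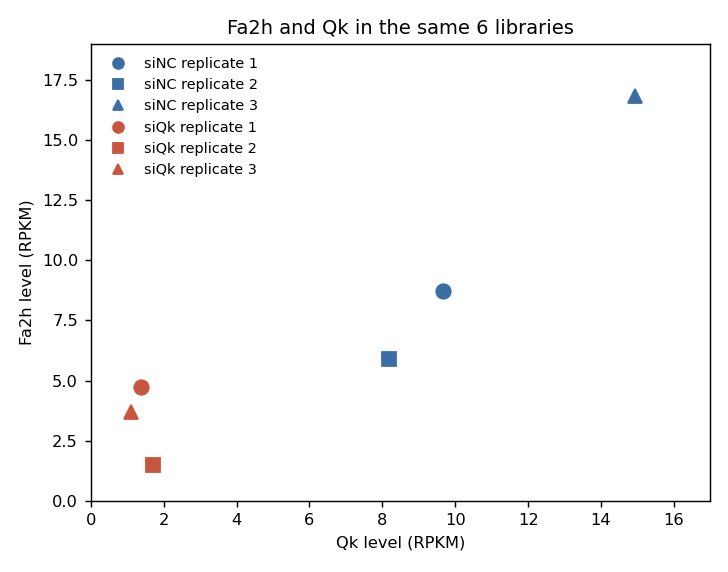
Level of Fa2h (vertical axis, RPKM) against that of Qk (horizontal axis, RPKM) in the same libraries, blue for siNC and red for siQk, shaped by replicate number. The siQk points sit between 1.10 and 1.71 RPKM of Qk with Fa2h from 1.47 to 4.72 RPKM, and the siNC points between 8.18 and 14.9 RPKM of Qk with Fa2h from 5.90 to 16.8 RPKM.

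The genes whose levels tracked Fa2h most closely changed much less than Fa2h did. By Pearson's r of log2 CPM over the 6 libraries, out of 12665 genes, they were Chac1 (r = 0.99), Adar (0.99), Paqr3 (0.99), 2010109K11Rik (0.99) and Tprkb (0.99). Their log2 fold changes were -0.50, -0.25, -0.64, -0.46 and -0.21. Chac1, a glutathione-degrading enzyme induced by cell stress, measured 67.7, 61.6 and 86.5 RPKM in siNC and 58.5, 42.1 and 54.9 RPKM in siQk. Like Fa2h it was highest in siNC replicate 3 and lowest in siQk replicate 2. Adar, an RNA-editing enzyme, was ordered in the same way at its ends, at 21.5 RPKM in siNC replicate 3 and 15.1 RPKM in siQk replicate 2. Without both of these libraries the 5 log2 fold changes were -0.18, -0.08, -0.20, -0.16 and -0.09, and r over the 4 libraries left was 0.893 to 0.998. These genes were picked for their likeness among 12665 over only 6 libraries, so the correlations carry no p and say nothing of shared control.

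The enzymes that add galactose and sulfate to the myelin lipids, Ugt8a and Gal3st1, were nearly absent. Ugt8a, the galactosyltransferase that commits ceramide to galactosylceramide (chr3:125865271-125938619, minus strand), had 0 counts in all 6 libraries. With a floor of 3 counts, a library with a count of 0 allows a level of up to 0.0136 to 0.0170 RPKM, depending on its total. No fall of Ugt8a could be detected from this level, and a rise above the floor was not seen in any siQk library. The floor and the intervals below are different measures, and both cover counting error only.

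Gal3st1, the sulfotransferase that makes sulfatide (chr11:3983636-3999326, plus strand), had 3, 10 and 3 counts in siNC and 2, 10 and 3 in siQk. These correspond to 0.0323, 0.116 and 0.0382 RPKM and to 0.0240, 0.102 and 0.0357 RPKM. Replicate 2 was the highest in both groups, and the groups overlapped almost completely. The ratio of the summed counts per library total, siQk over siNC, was 0.912 (95% exact interval 0.420 to 1.97).

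Cnp was the second member with an appreciable level, and its siQk mean was higher. It encodes the cyclic nucleotide phosphodiesterase of non-compact myelin (chr11:100574904-100591729, plus strand). It measured 2.98, 1.56 and 1.28 RPKM in siNC and 3.31, 2.70 and 2.75 RPKM in siQk. The siQk values were close together, while siNC replicate 1 lay among them, so the groups overlapped. Means were 1.94 ± 0.911 and 2.92 ± 0.338 RPKM (SD, n = 3), and the log2 fold change was 0.57 (SE 0.37). Without siNC replicate 1 the groups did not overlap and the log2 fold change was 1.01. Without siNC replicate 2 or siNC replicate 3 it was 0.42 and 0.36, with overlapping groups. Exons of Cnp share 154 bases with Dnajc7 on the opposite strand, and the library kit keeps no strand, so reads there cannot be assigned to either gene.

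Mbp was measured at about the same level in both groups. It encodes myelin basic protein, which holds the membrane layers of compact myelin together, and its locus (chr18:82475146-82585637, plus strand) has 16 annotated transcripts whose reads are counted together here. It measured 0.420, 0.514 and 0.561 RPKM in siNC and 0.553, 0.317 and 0.510 RPKM in siQk. Only siQk replicate 2 lay outside the siNC range, below it. The log2 fold change was -0.14 (SE 0.29), and ran from -0.30 to 0.20 over 15 alternatives. Its sign changed in 2 of them, to 0.07 without siQk replicate 2 and to 0.20 without both siNC replicate 3 and siQk replicate 2.

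Mal, a small tetraspan protein of myelin and of apical membrane transport (chr2:127633226-127656695, minus strand), was below the filter on low values. It measured 0.438, 0.228 and 0.176 RPKM in siNC and 0.505, 0.101 and 0.368 RPKM in siQk. The siQk libraries held both the highest and the lowest value of the 6. The ratio of summed counts was 1.08 (95% exact interval 0.835 to 1.41). Without siNC replicate 3 and siQk replicate 2 it was 1.29 (0.972 to 1.72).

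The members best known as late oligodendrocyte products were present only as scattered counts. Mag, a glycoprotein of the innermost myelin layer that faces the axon (chr7:30899176-30914873, minus strand), had 14, 22 and 5 counts in siNC and 11, 9 and 20 in siQk. Its ratio of summed counts was 0.949 (95% exact interval 0.598 to 1.504). Mog, a glycoprotein of the outer surface of myelin (chr17:37010743-37023398, minus strand), had 5, 6 and 5 counts in siNC and 8, 5 and 6 in siQk, a ratio of 1.16 (0.563 to 2.40). In both genes the groups overlapped. The siQk values of Mog lay above the siNC values once siQk replicate 2 was left out, a difference of a few counts.

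Mobp, an abundant small protein of compact myelin in the brain (chr9:120149707-120181484, plus strand), had 2 counts in siNC replicate 1, 4 in siQk replicate 3 and 0 in the other 4 libraries. The ratio of summed counts was 1.95 with a 95% exact interval of 0.279 to 21.5, which is too wide to give a direction. Exons of Mobp share 79 bases with the transcript Gm38642 on the same strand, so even these counts are uncertain.

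The labelled cell type was checked against marker genes, since myelin genes could come from other cells. The oligodendrocyte precursor list was uneven. Its sum was 5.85 to 7.90 RPKM in siNC and 5.24 to 7.97 RPKM in siQk, carried by the growth factor receptor Pdgfra (2.99 to 5.54 RPKM) and the proteoglycan Cspg4 (1.19 to 2.86 RPKM), and its other 6 genes were below 1 RPKM in every library. Of its lineage regulators, Sox10 reached at most 0.0318 RPKM, Olig1 at most 0.00999 RPKM and Olig2 at most 0.00954 RPKM in any library, and Neu4, a sialidase, was at 0 in all. Among the myelin gene regulators, Sox8 (9.59 to 18.9 RPKM) and Nkx6-2 (1.68 to 4.74 RPKM), named after the values were seen, were present, with overlapping groups. Of 8 mature oligodendrocyte markers, 7 were below 1 RPKM in every library, and Cldn11 and Aspa were at 0. The sum of that list was 3.41 to 4.21 RPKM in siNC and 2.14 to 2.98 RPKM in siQk, ranges that did not overlap. Of 7 Schwann cell markers, 6 were below 1 RPKM in every library and Pmp2 was at 0. Erbb3 carried the sum of that list, 11.7 to 12.9 RPKM in siNC and 9.53 to 11.8 RPKM in siQk.

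Other cell types gave little signal, and the neuronal lists were uneven. Astrocyte markers summed to at most 0.495 RPKM and microglial markers to at most 0.233 RPKM, with Aqp4, Gja1, Cx3cr1 and P2ry12 at 0 in all libraries. Neuronal markers, led by the tubulin Tubb3, summed to 241 to 447 RPKM in siNC and 307 to 467 RPKM in siQk. The motor neuron list, led by Isl1, summed to 10.3 to 11.9 RPKM in siNC and 14.8 to 17.3 RPKM in siQk. Isl1 itself measured 4.75 to 4.83 RPKM in siNC and 7.80 to 9.63 RPKM in siQk. The vesicular acetylcholine transporter Slc18a3 (1.56 to 2.29 RPKM), Isl2 (2.65 to 4.96 RPKM) and Lhx4 (0.289 to 1.13 RPKM) also passed the filter on low values. The other 4 markers did not, and among them the acetylcholine-making enzyme Chat reached at most 0.141 RPKM and Mnx1 at most 0.0944 RPKM.

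The fibroblast list was also lower in siQk, and 4 of its 5 genes were below 1 RPKM in every library, with Lum at 0. Its sum was 3.13 to 5.34 RPKM in siNC and 0.970 to 2.98 RPKM in siQk, carried by Pdgfrb, a growth factor receptor. Pdgfrb measured 3.65, 3.11 and 5.27 RPKM in siNC and 2.83, 0.839 and 2.46 RPKM in siQk, so that siNC replicate 3 was again the highest and siQk replicate 2 the lowest. The log2 fold change of Pdgfrb was -1.01 (SE 0.61), and -0.35 without both libraries. The part of the mature oligodendrocyte, motor neuron and fibroblast markers in the Fa2h values was not tested.

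The wider sphingolipid pathway was spread widely in level and showed no common shift. Its tested genes ran from Cers3 at a siNC mean of 0.552 RPKM to Psap at 852 RPKM. Of 43 genes listed, 42 were in the files and 41 were tested. In siQk 23 had a lower and 18 a higher fitted value, with a median log2 fold change of -0.05 beside 0.00 over all tested genes. None was called by the edgeR quasi-likelihood test, the edgeR exact test or DESeq2, which called 0.0079%, 0.0395% and 0.15% of all tested genes. At an unadjusted p under 0.05 in the quasi-likelihood test there was 1 gene of the list, beside 2.89% of all tested genes. Fa2h itself is not in this list.

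The most abundant genes of the pathway were measured well above Fa2h. Psap, the precursor of the saposins that help break down sphingolipids, was the most abundant at 852 ± 106 RPKM in siNC and 724 ± 131 RPKM in siQk. Cyb5r3, a reductase of the cytochrome b5 electron chain, measured 96.5 and 87.4 RPKM, and Degs1, which puts the double bond into ceramide, 88.6 and 78.8 RPKM. The ceramide synthase Cers2, which prefers the very long fatty acids found in myelin, measured 81.1 and 72.5 RPKM. Ugcg, which joins glucose instead of galactose to ceramide, measured 21.0 and 24.7 RPKM beside the 0 counts of Ugt8a. Cers2 and Ugcg were chosen for their step in the pathway after the values were seen. In each of these 5 genes the siNC and siQk ranges overlapped.

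Cerk was the pathway gene with the smallest p. It encodes ceramide kinase, which phosphorylates ceramide, and measured 21.0, 25.2 and 21.7 RPKM in siNC and 15.5, 18.3 and 16.2 RPKM in siQk. Every siQk library was below every siNC library, as in 3.49% of all tested genes. The fitted difference was -0.47 on the log2 scale (SE 0.09). The quasi-likelihood test gave an unadjusted p of 0.0125 and, over all genes, an adjusted p of 0.9996. Sgms2, a sphingomyelin synthase, had a log2 fold change of -0.45 (SE 0.18) and St3gal5, which makes the ganglioside GM3, one of 0.36 (SE 0.21), and in both the groups overlapped. Without siNC replicate 3 and siQk replicate 2 the value of St3gal5 was 0.16.

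**Figure D4:**
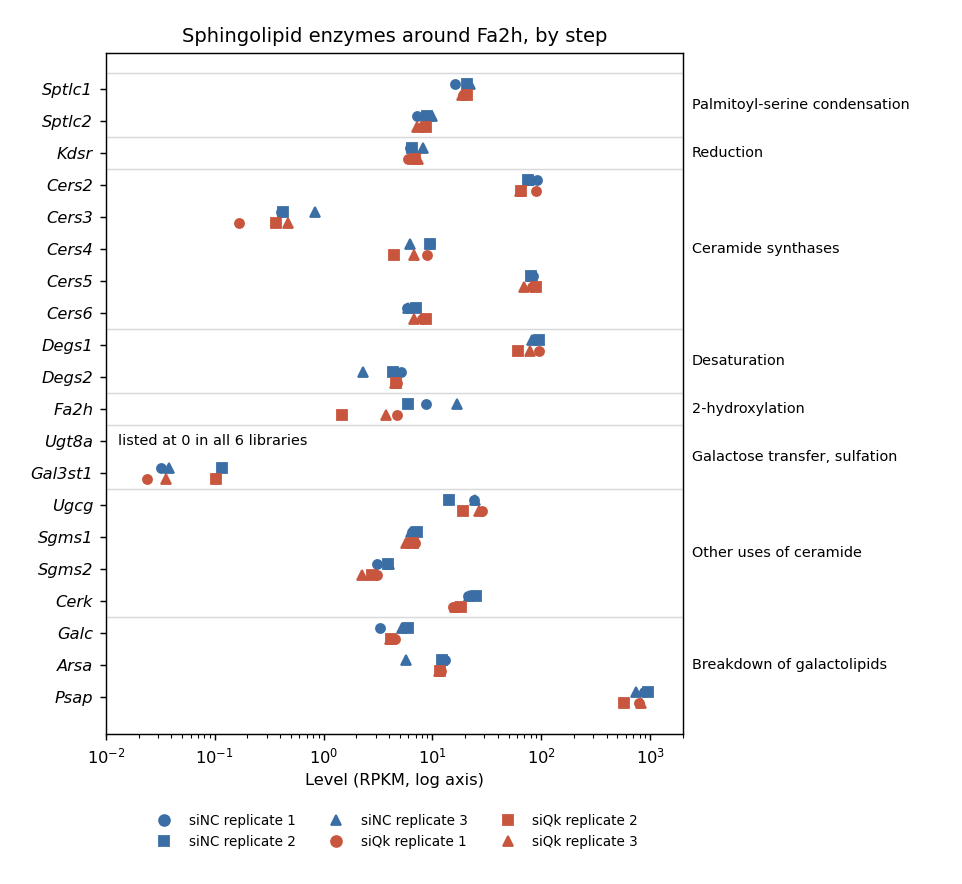
Levels in RPKM (horizontal axis, log scale) of Fa2h and of sphingolipid enzymes grouped by step (vertical axis), with a point per library, blue for siNC and red for siQk, shaped by replicate number; counts of 0 are written out. Fa2h spans 1.47 to 16.8 RPKM with the siQk points to the left, Cerk is the other enzyme shown whose groups do not overlap, and Gal3st1 lies at or under 0.116 RPKM with Ugt8a at 0.

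Myelin proteins outside the 9 genes were either absent or shared with other tissues. Of 35 listed, 17 were tested and 6 had no count in any library, namely Pmp2, Cldn11, Gjc3, Gjb1, Aspa and Car2. The most abundant were the tetraspanins Cd9 (498 and 415 RPKM in siNC and siQk) and Cd81 (71.2 and 73.1 RPKM) and the peripheral myelin protein Pmp22 (62.2 and 68.0 RPKM). The fitted value was lower in 9 genes and higher in 8, with a median log2 fold change of -0.12. None was called by the 3 tests, and none had an unadjusted p under 0.05 in the quasi-likelihood test, beside 2.89% of all tested genes.

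Tspan2, a tetraspanin of early myelinating cells, went from 5.08 ± 1.77 to 3.34 ± 0.671 RPKM (log2 fold change -0.63, SE 0.37) with overlapping groups. Gsn, the actin-severing protein gelsolin, went from 33.5 ± 10.5 to 25.7 ± 4.27 RPKM (-0.40, SE 0.30), also with overlap.

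Regulators of myelin genes had a median close to that of all genes. Of 30 listed, 20 were tested, and 13 had a higher and 7 a lower fitted value, with a median log2 fold change of 0.06. The abundant members were general chromatin factors, Hdac2 (148 and 155 RPKM), Yy1 (27.8 and 27.0 RPKM) and Smarca4 (23.3 and 26.3 RPKM), whose groups overlapped. Id2 is an inhibitor of bHLH factors that holds back oligodendrocyte differentiation. It was the 1 gene with an unadjusted p under 0.05, beside 2.89% of all tested genes. It measured 3.89, 3.12 and 2.89 RPKM in siNC and 5.31, 10.6 and 5.29 RPKM in siQk. Every siQk value was above every siNC value, as in 5.35% of all tested genes. The fitted difference was 1.07 on the log2 scale (SE 0.35). The quasi-likelihood test of edgeR gave an unadjusted p of 0.00776 and an adjusted p of 0.9996. Without siNC replicate 3 and siQk replicate 2 it was 0.60. Hes1 and Tcf7l2, next in order of p, had log2 fold changes of -0.25 (SE 0.21) and 0.18 (SE 0.17). No regulator was called by the 3 tests.

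RNAs known as Quaking targets in glia showed no common direction. Of 8 listed, 6 were tested, 4 with a lower and 2 with a higher fitted value. The median log2 fold change was -0.09. None was called by the 3 tests or had an unadjusted p under 0.05, beside 2.89% of all tested genes at that p. The list holds Mbp and Mag, described above. Map1b, a microtubule protein, measured 171 ± 13.7 and 166 ± 33.8 RPKM. Hnrnpa1, a splicing regulator, measured 24.3 ± 1.88 and 26.3 ± 5.84 RPKM, and Sirt2, a deacetylase found in myelin, 27.3 ± 8.15 and 25.4 ± 1.42 RPKM. The log2 fold changes of Sirt2 and Cdkn1b, a cell cycle inhibitor, were -0.12 (SE 0.26) and 0.08 (SE 0.13).

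**Figure D5:**
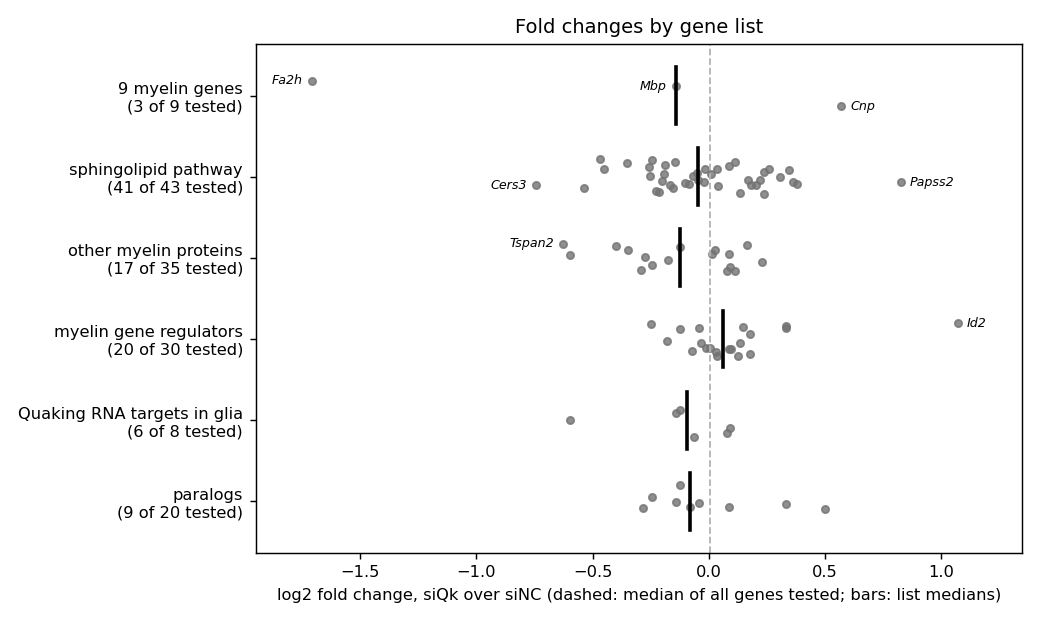
Log2 fold change, siQk over siNC (horizontal axis), of each tested gene in 6 lists (vertical axis, with the number tested); points are genes, spread vertically for sight only, black bars are list medians and the dashed line is the median of all tested genes. Fa2h lies at -1.71, apart from the points of the other lists, whose medians run from -0.12 to 0.06; Mbp belongs to more than 1 list.

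Paralogs of the members were compared because the low members have relatives in more than 1 tissue. Of 20 listed, 9 were tested and 4 had no count in any library. Of the tested genes 6 had a lower and 3 a higher fitted value, and the median log2 fold change was -0.08. None was called by the 3 tests or had an unadjusted p under 0.05, beside 2.89% of all tested genes at that p. Relatives of Mal were the most abundant, with Cmtm7 at 37.3 and 35.7 RPKM and Cmtm3 at 9.68 and 9.01 RPKM in siNC and siQk. Cmtm4 measured 11.1, 11.8 and 11.4 RPKM in siNC and 8.30, 9.38 and 11.04 RPKM in siQk. Its siQk values all lay below its siNC values, as in 3.49% of all tested genes. Its log2 fold change was -0.28 (SE 0.12). Cmtm6 had one of 0.33 (SE 0.24). Gal3st4, a relative of Gal3st1, measured 0.301 and 0.434 RPKM (0.50, SE 0.33), with overlapping groups. Without siNC replicate 3 and siQk replicate 2 the values of Cmtm6 and Gal3st4 were 0.09 and 0.05.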

How the data were processed

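Poly-A RNA of NSC-34 cells (3 siNC and 3 siQk libraries, independent cultures) was sequenced by the authors as paired reads, aligned to the mouse genome (mm10) with OLego and quantified with Quantas. The deposited files give per gene an expected count, of which 21.9% to 22.9% per library were not whole, the length of its exons and RPKM. The deposited RPKM was rebuilt from the count, the length and the library total. Groups and replicate numbers came from the labels.

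Expected counts were rounded and scaled by TMM (factors 0.956 to 1.02). Genes with mean log2 CPM above 0 were tested (12665 genes, at least 99.9% of each library's counts) in one fit of all 6 libraries by glmQLFTest, the quasi-likelihood test of edgeR 4.0.16 (R 4.3.3). Calls needed p under 0.01 and Benjamini-Hochberg adjusted p under 0.1. Standard errors came from the spread of log2 CPM (prior count 2) between libraries. Library totals of 43000503 to 53565950 counts make counting error small for Fa2h and large for the lowest genes. Ratios of summed counts have exact binomial intervals. The spread between 3 libraries limits all else, and which part of it is technical cannot be told apart.

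The members and gene lists were chosen with earlier results of these data known. Of 169 other listed genes, 156 matched by symbol, 12 by Entrez identifier and 1 (Cers1) did not match. Named genes were the members, Qk, up to 3 genes per list by smallest p and up to 3 by siNC level, the 5 genes most like Fa2h, and markers where needed. An item of these lists that the rule names is not reported here. Positions and transcripts were those of GENCODE M21 on GRCm38. Alternatives were a replicate block, 3 other scalings, 2 other filters, DESeq2 1.42.0, the edgeR exact test, fits without 1 library and, chosen after seeing the data, leaving out siNC replicate 3 and siQk replicate 2 together and scaling the levels by TMM. The fit was tested on simulated counts.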

Additional observations from a re-analysis of the deposited data

How the results depend on the processing

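Fa2h stayed lower in siQk in all 15 alternatives and its groups stayed apart in the 10 that compare levels. Leaving out libraries could not change either outcome, since every siQk value lay below every siNC value. The other scalings of the levels used factors that differ little between libraries beside the gap of 1.25 times. Its log2 fold change was -0.79 without both siNC replicate 3 and siQk replicate 2, and leaving out 1 library gave -2.06 to -1.15. The number of genes called was 5 by the edgeR exact test and 19 by DESeq2. Leaving out 1 library gave 0 to 1 genes called by the quasi-likelihood test, the 0 coming without siNC replicate 1, beside 538 genes at an unadjusted p under 0.05. Qk then had a log2 fold change of -3.09 with an adjusted p of 0.125, and leaving out 1 library gave -3.19 to -2.67. The number of members with groups apart was 2 without siNC replicate 1 (Cnp higher), without siQk replicate 2 (Mog higher) and without both siNC replicate 3 and siQk replicate 2 (Mog higher), a range of 1 to 2. Groups of fewer libraries separate more readily. The share of all tested genes apart under these settings was not computed, so nothing is read from this range. The median log2 fold change of the sphingolipid list was -0.019 under total-count scaling, which put the median of all genes at 0.03, and -0.0998 to -0.0252 leaving out 1 library. That of the Quaking targets was 0.14 without both libraries. Leaving out libraries put Sirt2 between -0.373 and 0.0445, the latter without siNC replicate 1. The median changed sign in 2 alternatives for the Quaking targets and in 3 for the paralogs. Libraries with the same replicate number had deviation correlations of 0.213, 0.018 and -0.17, and were not treated as pairs. The replicate block gave 1 called gene and -1.72 for Fa2h. The causes were not tested. Depth limits Gal3st1, Mag, Mog and Mobp, which had at most 22 counts in any library.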
